A study of Cyanidioschyzon merolae strain 10D with 6 samples.

Results

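Transposable elements (TEs) carry genes of their own, and a gene model that lies inside a TE annotation may be part of the element or a host gene that the repeat annotation covers. The genes described here are the nuclear genes of Cyanidioschyzon merolae that start and end at least 20000 bp from both chromosome ends and that have at least 50% of their length covered by the deposited TE annotation. Position and cover alone chose them, and no expression value was used. They number 149 of the 4984 annotated genes, or of 4571 nuclear genes that lie as far from the ends. They form 146 distinct loci, because 3 pairs of gene models share their coordinates and their counts (CMO119C with CMO120C, CMN166C with CMN169C, and CMN165C with CMN176C).

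Cyanidioschyzon merolae 10D is a single-celled red alga that lives in hot acid water. The study sequenced poly(A) RNA in 3 wild-type 10D samples and in 3 of the Cme(z)-1 line, a mutant of that strain with loss of function of Polycomb Repressive Complex 2 (PRC2). All 6 samples came from cells grown under the same labelled conditions, in MA2 medium at 42 °C and a pH of 2.5 to 3.0 under constant white light of 80 µmol/m2/s. The mutant group is a single line, so a trait of that line other than the loss of PRC2 cannot be told apart from the genotype, and nothing in the labels says whether the replicates were separate cultures. The p-values given here rest on the spread of these libraries alone, part or all of which may be technical.

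As background, PRC2 methylates histone H3 through its enzyme subunit E(z), and this mark goes with silent chromatin. LINE elements copy themselves through an RNA that their own reverse transcriptase turns into DNA. Copia and Gypsy elements are LTR retrotransposons that also move through RNA, whereas Harbinger, Mutator, CACTA, hAT and Mariner elements move as DNA with a transposase. Helitrons spread by rolling-circle replication and in several organisms carry along pieces of host genes. An intact element can therefore be read as a gene, and a large annotated element can enclose genes of the host.

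The gene taken as E(z) from published knowledge of this alga, CMQ156C (chromosome 17, 379207 to 381546, build ASM9120v1), had 1776, 1533 and 1770 reads in the wild-type libraries and 0 reads in each mutant library. Against a floor of 3 counts per library its mutant level was at least 671-fold lower (adjusted p = 9.2e-07, edgeR quasi-likelihood test). Libraries held 7860491 to 10754544 counts, so that 3 counts correspond to 0.279 to 0.382 CPM (counts per 1000000 counts). All values below are CPM over scaled library sizes, as mean ± SD of 3 libraries, and a gene was called raised or lowered where its p-value, adjusted over 4865 genes and 2776 TE copies together, was under 0.05. The library kit kept no strand, so a read from a gene cannot be told apart from one of its antisense strand or of the TE copy over it, and how reads of repeated sequence were assigned is not given in the sources used here.

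The annotation over these genes came in 2 kinds. Copies found by their structure covered most of 69 genes, and copies found by homology to a repeat family covered most of 80. By family of the covering copy, 26 genes lay under DTC (CACTA), 24 under DTM (Mutator), 17 under Helitron and 1 under DTA (hAT), all of them structural copies. Among the homology copies, a single LINE family covered 24 genes, Copia 20, TcMar-ISRm11 (a Mariner-like family) 15, Harbinger 7 and Gypsy 7. The remaining 8 genes were spread over Mutator (2 genes), PIF-Harbinger, TcMar and 4 families of 1 gene each, 1 of them a structural MITE of the DTC type. Cover was complete in 103 genes, and 126 genes overlapped 1 copy. The genes were found on all 20 nuclear chromosomes, with 16 on chromosome 9, 14 on chromosome 18 and 13 on chromosome 11, and their lengths ran from 208 to 5997 bp with a median of 810. The gene annotation gives 145 of them as protein coding and 4 as nontranslating, and it names no product for any of them.

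Median levels in the wild type differed between the 2 kinds of cover. Genes under structural copies had a median of 84.5 CPM per kb of gene length, near the 90.9 of interior genes with no TE over them. Genes of the LINE family had a median of 10.5 CPM per kb, and genes under other homology copies 40.5. Mutant medians were 79.3 for the structural group, 87.3 for genes with no TE, 8.84 for the LINE genes and 39.7 for the other homology group. Of the 149 genes, 41 were under 10 CPM and 22 under 1 CPM in the wild type, and 36 and 20 of these, respectively, lay under homology copies. These medians describe gene sets of different size and length, and no test was made between them.

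**Figure D1:**
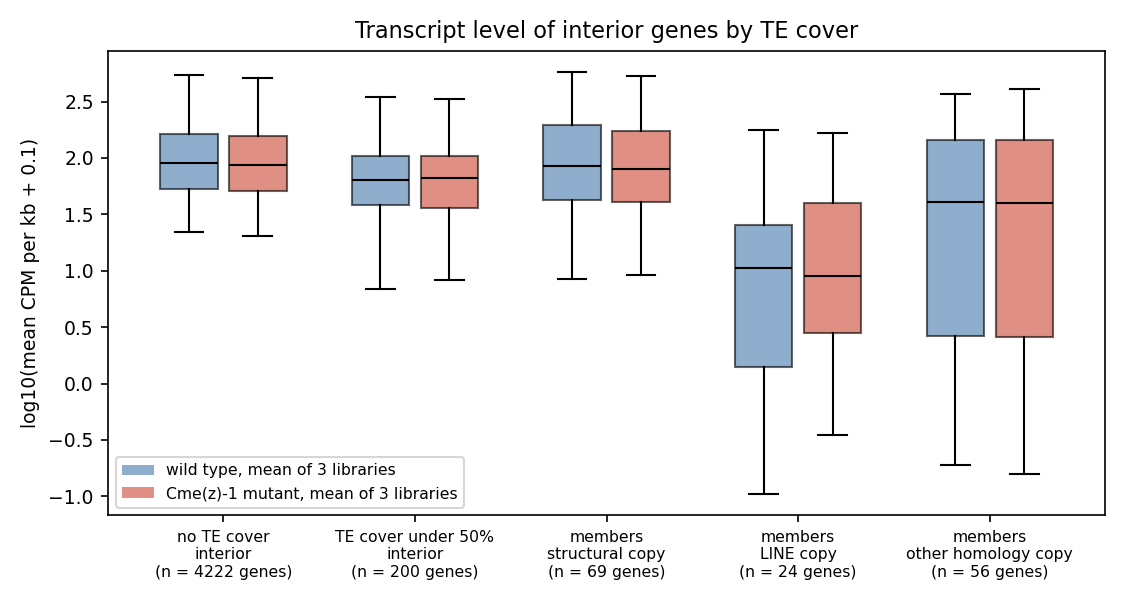
Wild-type and mutant levels (CPM per kb of gene) of interior genes by TE cover; boxes span the quartiles with the median as a line, and whiskers the 5% and 95% quantiles, on an axis of log10 of the level plus 0.1. Genes under structural copies sit close to genes without TE cover (medians 84.5 and 90.9 CPM per kb in the wild type), and LINE genes sit lowest (10.5).

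The 5 most abundant genes of this set were CMQ390C, CMD135C, CMI211C, CMH133C and, under a TcMar-ISRm11 homology copy, CMC074C, which is described with its family. CMQ390C, under a DTC copy, was read at 1708, 1787 and 1332 CPM in the wild type and at 1545, 1522 and 1239 in the mutant. CMI211C, under a Helitron copy, had 774 ± 67.6 CPM in the wild type against 856 ± 127 in the mutant, and CMH133C, under a DTM copy, 665 ± 137 and 554 ± 34.5. For none of these did the groups separate, and none was called. CMD135C, also under a Helitron copy, was read at 593, 1199 and 499 CPM in the wild type and at 1228, 1208 and 809 in the mutant. Wild-type replicate 2 stood with the mutant libraries, and the difference was not called (log2 fold change 0.50, SE 0.32, adjusted p = 0.48).

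Of the 149 genes, 127 had enough reads to be tested, and 7 rose, 2 fell and 118 were not called in the mutant. The 7 that rose are 5.51% of the genes tested here, where 1.29% of all tested genes and 0.909% of tested interior genes rose. The 2 that fell are 1.57%, where 1.83% of all tested genes and 1.86% of interior genes fell. The centre of the group was near that of all genes: the median log2 fold change was -0.028 here and -0.031 over all tested genes. Libraries did not overlap between the groups for 19 genes with the mutant above and 17 with the mutant below, and such genes were 8.12% and 12.8% of all tested genes. An unadjusted p under 0.05 was reached by 18 genes upward and 13 downward, against 5.51% and 9.68% of all tested genes. Among all genes 63 rose and 89 fell, and with scaling to total counts alone 86 rose and 65 fell, so the balance over all genes moves with the scaling.

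The calls were spread unevenly over the kinds of cover. All 9 lay under homology copies, where 60 genes were tested. Of 67 tested genes under structural copies none was called by edgeR or by limma voom, with unadjusted p under 0.05 for 3 upward and 7 downward, while DESeq2 called 1 up and 2 down. Log2 fold changes under structural copies ran from -0.80 to 0.72 with a median of -0.03. By family, the LINE genes had 4 raised and 2 lowered of 18 tested, Harbinger 2 raised of 5, and Copia 1 raised of 17. Interior genes with some TE cover under 50% had none raised and 1 lowered of 195 tested (DESeq2 4 and 3, voom 0 and 1, unadjusted p under 0.05 for 10 upward and 8 downward). Over all 4865 tested genes edgeR called 1.29% up and 1.83% down, DESeq2 called 115 and 211 genes, and voom 62 and 84. Unadjusted p under 0.05 was reached by 5.51% of all tested genes upward and 9.68% downward. At such shares few calls are to be found among 67 or 195 genes, so their lack of calls does not set them apart. No test of these differences in counts was made.

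**Figure D2:**
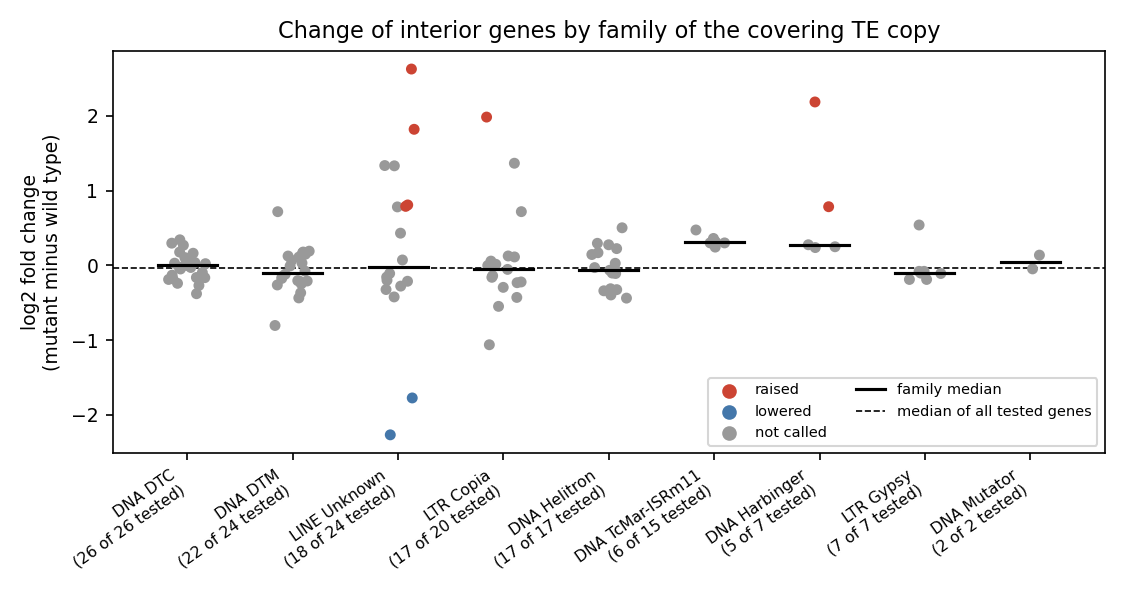
Log2 fold change (mutant over wild type) of every tested gene, by family of the covering copy for families with at least 2 genes; solid lines are family medians, the dashed line is the median of all tested genes, and colour gives the call. The 9 called genes lie in the LINE, Harbinger and Copia families, and the structural families DTC, DTM and Helitron scatter around 0.

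The 24 LINE genes all lay in copies of one repeat family, named rnd-1_family-24 in the annotation, whose LINE type is given as unknown. The annotation holds 53 copies of it, of which 18 measure 4002 to 4202 bp and all 18 are interior. The genes lay in 22 copies, 15 of these at least 4000 bp long. On the strand of the copy lay 22 genes, and CMJ309C and CMR266C lay opposite to it. Of the 15 same-strand genes in copies of at least 4000 bp, 9 ended 2401 to 2481 bp from the 5′ end of the copy, while the starts of the 15 ran from 940 to 2230 bp, so that many of these models end at a like point within the element. The length limit and this window were chosen after the positions were seen.

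CMT010C lies in such a copy on chromosome 20 (28954 to 30675, plus strand), 28953 bp from the chromosome end. It was read at 10.4, 7.82 and 4.04 CPM in the wild type and at 26.3, 27.1 and 25.8 in the mutant. Every mutant library was above every wild-type library, and the gene rose (log2 fold change 1.82, SE 0.31, adjusted p = 0.0098, edgeR). CME173C, on chromosome 5 (460409 to 461207, minus strand), was close to the floor in the wild type at 0.777, 1.54 and 0.632 CPM and was read at 5.57, 4.96 and 7.73 in the mutant. It had the largest fitted rise among these genes, 2.63 on the log2 scale (SE 0.41, adjusted p = 0.0061), from wild-type counts of 7, 12 and 5 reads.

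CMR431C, on chromosome 18 (1056433 to 1057134, plus strand), was read at 15.3, 21.2 and 15.2 CPM in the wild type and at 33.5, 27.2 and 29.6 in the mutant. CMJ290C, on chromosome 10 (767778 to 768021, minus strand), was read at 13.8, 12.8 and 12.8 CPM and at 20.7, 20.7 and 26.7. The groups of both genes did not overlap, and both rose by less than the first pair, with log2 fold changes of 0.81 (SE 0.19, adjusted p = 0.048) and 0.79 (SE 0.19, adjusted p = 0.0495). Both calls were at the edge of the threshold. CMJ290C lost its call without any 1 of the 6 libraries (adjusted p 0.057 to 0.16), and CMR431C without any 1 other than wild-type replicate 2 (adjusted p 0.061 to 0.21).

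The 2 genes that fell stand next to each other in 1 LINE copy. CMJ309C, on chromosome 10 (807871 to 808785, plus strand) and annotated as nontranslating, was read at 15.5, 10.5 and 14.8 CPM in the wild type and at 3.34, 2.78 and 2.33 in the mutant. CMJ308C (808918 to 809965, minus strand) was read at 14.0, 12.1 and 13.9 CPM and at 3.90, 3.14 and 4.57. Every mutant library was below every wild-type library in both, and both fell, by 2.27 (SE 0.28, adjusted p = 0.0019) and 1.77 (SE 0.25, adjusted p = 0.0039) on the log2 scale. The genes run on opposite strands within the same copy, 30693 and 29513 bp from the chromosome end, and with a limit of 40000 bp from the ends neither belongs to the group, which then holds no gene that fell and 6 that rose, CMT010C being left out too. The next gene of this run, CMJ311C under a neighbouring Gypsy copy, was read at 57.0 ± 6.60 CPM in the wild type against 83.0 ± 21.0 in the mutant and was not called (log2 fold change 0.54, SE 0.18, adjusted p = 0.16).

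**Figure D3:**
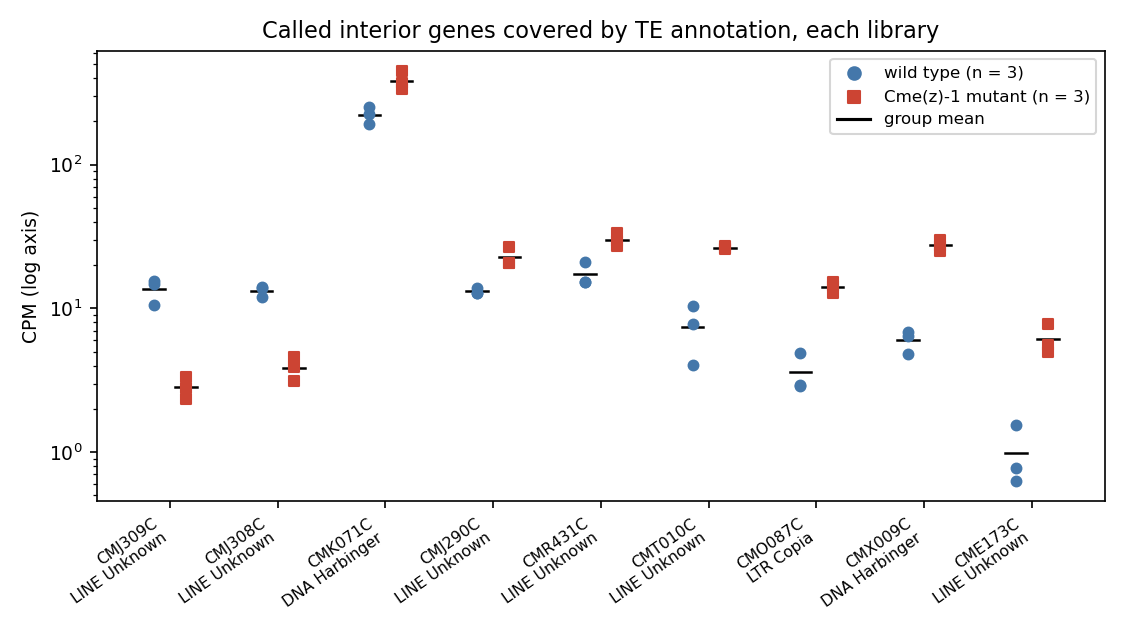
CPM in each library (log axis) for the 9 called genes, 3 wild-type and 3 mutant points per gene with the group means as lines. In each gene the 3 mutant points lie all above or, for CMJ308C and CMJ309C, all below the 3 wild-type points.

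The other LINE genes were not called by edgeR, while DESeq2 called 6 LINE genes raised and voom 5, both with 2 lowered. CMI223C had 1.75 CPM in the wild type against 4.42 in the mutant (log2 fold change 1.34, SE 0.35, adjusted p = 0.071 by edgeR, 0.039 by DESeq2), and CMP121C 2.30 and 5.77 (log2 fold change 1.33, SE 0.34, adjusted p = 0.063 by edgeR, 0.017 by DESeq2 and 0.045 by voom). At the other end, the best expressed LINE gene, CMR266C, was read at 112, 117 and 97.6 CPM in the wild type and at 93.9, 110.1 and 77.9 in the mutant, with groups that overlapped. Over the 18 tested LINE genes, the mutant lay above the wild type without overlap in 7, below in 3, and the groups overlapped in 8, where 8.12% of all tested genes lay above and 12.8% below. Their median log2 fold change was -0.02. The summed reads of all 24 genes came to 390 ± 25.6 CPM in the wild type against 417 ± 4.13 in the mutant, a log2 difference of 0.10 (SE 0.10) that was not called (adjusted p = 0.71).

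Among the LINE genes with too few reads for the test, CMG208C and CMI189C had mean levels of 0 CPM in the wild type and 0.0620 and 0.0806 CPM in the mutant. CMS071C and CMJ275C had more reads, most of them also in the mutant. CMS071C had 1 read over the 3 wild-type libraries and 35 over those of the mutant, a ratio of 29.1 (exact 95% interval 4.88 to 1180). CMJ275C had 4 and 43 reads, a ratio of 8.92 (3.24 to 34.2). These intervals cover counting error only, and no call was made for either gene in the fit of genes. Both were singled out after their values were seen.

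The LINE copies themselves were counted as rows of their own, and their values ran mostly with those of the genes inside them. Of the 22 copies that hold a gene, 21 were tested, and 7 rose and 1 fell, where 7.1% of all tested TE copies rose and 1.04% fell. The gene and its copy had log2 fold changes of the same sign in 15 of the 18 pairs in which both were tested. The 4 raised genes each lay in a raised copy, and the 2 lowered genes shared the copy that fell. Since a gene and its copy share the same bases, these are not independent measurements.

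By level, the copy over CMT010C, TE_homo_4424, averaged 49.7 ± 22.7 CPM without and 185 ± 36.0 with the mutation (log2 fold change 1.89, SE 0.29, adjusted p = 0.0054). The copy over CME173C, TE_homo_703, went from 10.5 ± 3.28 to 33.1 ± 1.57 CPM (1.66, SE 0.24, adjusted p = 0.0048). The copies over CMR431C and CMJ290C rose by less, as the genes did: TE_homo_4025 from 86.5 ± 16.4 to 153 ± 5.99 CPM, and TE_homo_1817 from 66.3 ± 10.2 to 125 ± 16.6. The copy shared by CMJ308C and CMJ309C, TE_homo_1830, had 18.8 ± 3.97 CPM and fell to 5.79 ± 0.648 (log2 fold change -1.70, SE 0.24, adjusted p = 0.0042).

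In 3 further LINE copies the copy rose while the gene inside was not called or not tested. TE_homo_3176, at 15.6 ± 1.72 CPM in the wild type, reached 66.2 ± 2.38 (log2 fold change 2.09, SE 0.14, adjusted p = 3.9e-05) and holds CMP121C. TE_homo_4108, which holds CMS071C, went from 5.91 ± 0.969 to 16.4 ± 1.74 CPM, and TE_homo_1810, which holds CMJ275C, from 0.905 ± 0.482 to 4.81 ± 2.81. In all 3 every mutant library was above every wild-type library. When the reads of each gene and of the copies over it were summed before the fit, 12 genes rose in place of 7, and the 5 added were CMI223C, CMJ275C, CMN065C, CMP121C and CMS071C.

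Calls were unevenly spread over copy lengths. Of the 14 tested copies of at least 4000 bp that hold a gene, 7 rose and 1 fell. Of the 7 tested shorter copies that hold a gene, from 1793 to 3431 bp, none was called by edgeR or voom, with unadjusted p under 0.05 for 3 upward, and DESeq2 called 1 up. Over all interior copies of the family, 9 of 17 tested copies of at least 4000 bp rose, with a median log2 fold change of 0.92, and 4 of 23 shorter ones, with a median of 0.25; 1 copy fell in each class, TE_homo_1830 and the shorter TE_homo_796. Over all tested TE copies 7.1% rose and 1.04% fell. The difference between the length classes was not tested, and reads that near-identical copies share may have been counted at more than one of them.

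**Figure D4:**
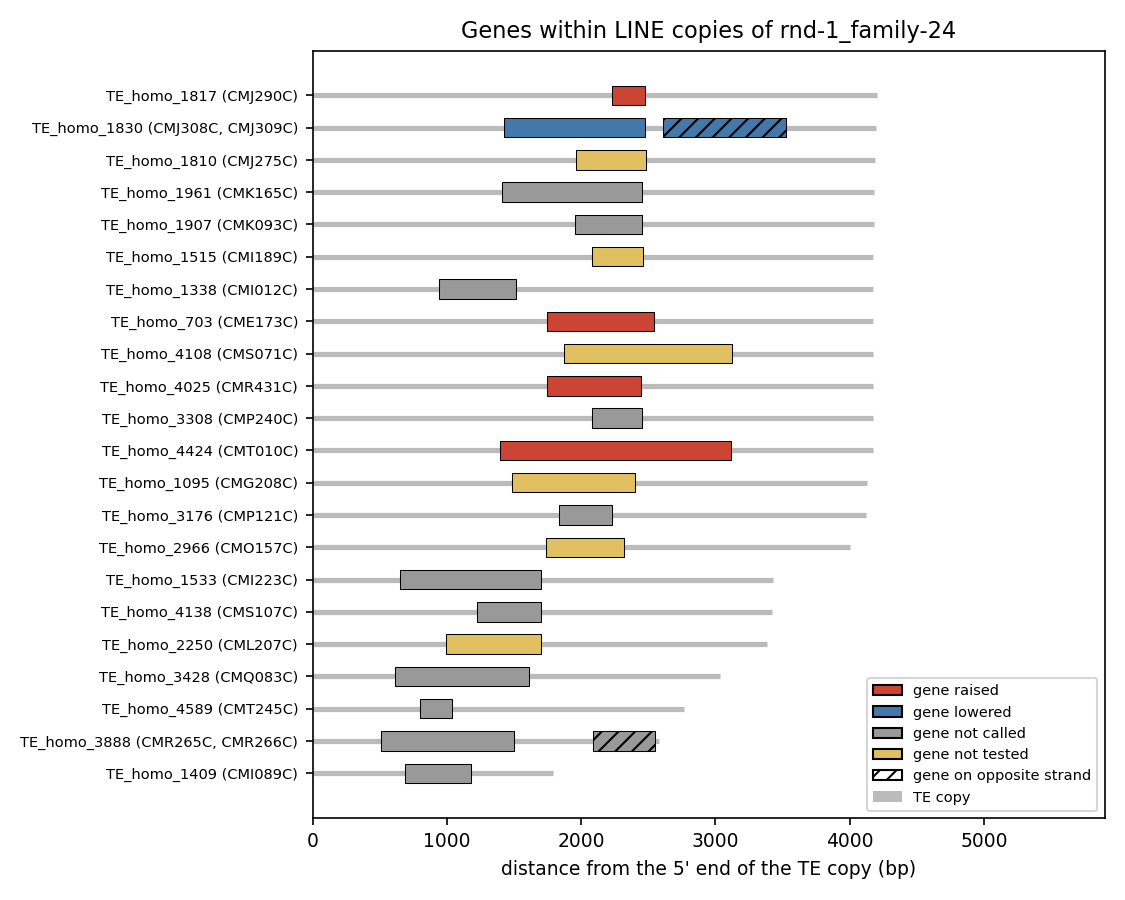
Copies of rnd-1_family-24 that hold a gene, drawn to scale from the 5′ end of the copy (bp), with the genes inside coloured by call and hatched where they lie on the other strand. Same-strand gene models in copies of at least 4000 bp start between 940 and 2230 bp, and 9 of 15 end at 2401 to 2481 bp.

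Harbinger elements, a DNA transposon family, covered 7 genes, of which 5 were tested and 2 rose. CMX009C, on chromosome 20 (601502 to 602545, plus strand), was read at 6.44, 6.80 and 4.80 CPM in the wild type and at 25.2, 29.9 and 27.2 in the mutant. Every mutant library was above every wild-type library, and of the 9 called genes it had the smallest adjusted p (log2 fold change 2.19, SE 0.21, adjusted p = 4.8e-04). It overlapped 3 copies. TE_homo_4584 went from 0.754 ± 0.480 to 6.81 ± 2.45 CPM and TE_homo_4585 from 1.94 ± 0.751 to 28.3 ± 2.33, and both rose. The last of them, the Gypsy copy TE_homo_4583, was at 9.66, 4.23 and 8.97 CPM in the wild type and at 21.8, 0 and 23.8 in the mutant, and was not called.

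CMK071C, under a copy of another Harbinger repeat family on chromosome 11 (213682 to 214234, minus strand), was the most abundant called gene. It was read at 227, 191 and 251 CPM in the wild type and at 336, 447 and 369 in the mutant. The groups did not overlap, and the gene rose (log2 fold change 0.78, SE 0.15, adjusted p = 0.015); without wild-type replicate 1 the adjusted p was 0.071. Its copy, TE_homo_1899, lies on the opposite strand and had 10.5, 6.93 and 9.09 CPM in the wild type against 12.5, 19.2 and 13.1 in the mutant, without overlap and not called (adjusted p = 0.17). The other tested Harbinger genes, CMG116C, CMO230C and CMT349C, had log2 fold changes of 0.28, 0.24 and 0.25 and were not called (adjusted p 0.44 to 0.53). Summed over the 7 genes, Harbinger reads were at 311 ± 35.6 CPM in the wild type and rose to 509 ± 66.0 (log2 fold change 0.71, SE 0.14, adjusted p = 0.019), and CMK071C holds most of them. It was the only family whose sum was called.

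Copia covered 20 genes, and 1 of the 17 tested rose. CMO087C, on chromosome 15 (219293 to 219871, plus strand), was read at 2.89, 2.95 and 4.93 CPM in the wild type and at 14.4, 12.8 and 15.4 in the mutant. The groups did not overlap (log2 fold change 1.98, SE 0.28, adjusted p = 0.0042), and its copy, TE_homo_2914, also rose, from 2.81 ± 0.459 to 12.7 ± 3.66 CPM. The copy covers 52.5% of the gene, so this gene is among the 3 nearest to the limit of 50%. CMN065C had 3.03 CPM in the wild type against 7.79 in the mutant (1.37, SE 0.40, adjusted p = 0.10), and CMS509C had 7.08 and 3.37 (-1.06, SE 0.36, adjusted p = 0.16). DESeq2 called 2 Copia genes raised, with CMN065C added (adjusted p = 0.022), and CMH129C lowered (-0.43, adjusted p = 0.034), and voom called CMO087C alone. The most abundant Copia gene, CML261C, was read at 241 ± 36.8 and 262 ± 36.6 CPM, with overlapping groups. Summed Copia reads were not called, at 748 ± 64.2 and 731 ± 43.9 CPM (adjusted p = 0.94).

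TcMar-ISRm11 covered 15 genes, and 9 of them had too few reads to be tested. None of the 6 tested was called by edgeR, DESeq2 or voom, with unadjusted p under 0.05 for 2 upward. Most of the reads of this family came from CMC074C, CMH216C, CMM108C and CMQ418C. CMC074C, the most abundant, was read at 484, 669 and 415 CPM in the wild type and at 747, 669 and 597 in the mutant. Wild-type replicate 2 was the highest wild-type library in all 4 genes and overlapped the mutant in each, and their log2 fold changes were 0.36, 0.32, 0.30 and 0.24. Their lengths differ by no more than 1 bp (1887 and 1888 bp) and they lie in the same repeat family, so reads may be shared among them and the level of each single gene is uncertain. The gene of lowest p in this family was CMP180C, at 17.2 ± 3.51 and 23.9 ± 2.17 CPM (0.47, SE 0.20, adjusted p = 0.26).

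Gypsy covered 7 gene models at 5 loci. All 7 were tested, none was called by edgeR, DESeq2 or voom, and 1 had an unadjusted p under 0.05 upward, the CMJ311C described above. CMH024C was the most abundant at 460 ± 73.9 CPM in the wild type against 428 ± 24.1 in the mutant. The gene with the smallest p among the families of 1 or 2 genes was CMS327C, under a PIF-Harbinger copy, at 140 ± 14.2 and 105 ± 4.47 CPM (-0.42, SE 0.10, adjusted p = 0.058 by edgeR and 0.017 by DESeq2, which called it lowered). It was chosen for its p after the values were seen.

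The DTC, DTM and Helitron genes gave no call in the main test. Of 26 tested DTC genes none was called by edgeR or voom, with 1 upward and 3 downward at unadjusted p under 0.05, and DESeq2 called 1 up. Of 22 tested DTM genes none was called by edgeR or voom, with 1 upward and 2 downward, and DESeq2 called 2 down. Of 17 Helitron genes none was called by edgeR, DESeq2 or voom, with 1 upward and 2 downward. Their median log2 fold changes were 0.00, -0.10 and -0.06. Over all tested genes edgeR called 1.29% up and 1.83% down, and 5.51% and 9.68% reached an unadjusted p under 0.05. In families of this size few or no calls are to be found at such shares, so the lack of calls says little about them. The same holds for the 6 tested TcMar-ISRm11 and 7 tested Gypsy genes.

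The gene of lowest p under a DTC copy was CMS132C, at 130, 137 and 150.4 CPM in the wild type and at 174, 168 and 188 in the mutant (log2 fold change 0.34, SE 0.10, adjusted p = 0.096). Under a DTM copy it was CMB148C, at 24.5, 19.8 and 29.3 and at 13.6, 12.2 and 16.2 CPM (-0.80, SE 0.21, adjusted p = 0.070). In both genes the groups did not overlap, and neither was called by edgeR or voom, while DESeq2 called both (adjusted p = 0.044 for CMS132C and 0.0075 for CMB148C). CMO183C, a DTM gene of high level per length, was read at 390 ± 71.8 and 398 ± 82.6 CPM and its groups overlapped. Under Helitron copies CMK041C had the lowest p, at 169 ± 20.4 and 128 ± 20.4 CPM (-0.40, SE 0.14, adjusted p = 0.17). One structural copy, the DTC copy TE_struc_68, was itself called raised, from 275 ± 8.44 to 392 ± 47.9 CPM (0.51, adjusted p = 0.042), while the gene inside it, CMR469C, was read at 149 ± 6.70 and 168 ± 26.9 CPM and was not called.

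Helitron genes stood in runs. One structural Helitron of 19270 bp on chromosome 9 (TE_struc_18, 555350 to 574619), the longest TE copy of the annotation, covers 7 neighbouring genes. Within it the wild-type level per length ran from 10.8 CPM per kb in CMI206C and 53.6 in CMI209C to 134 in CMI210C and 1330 in CMI211C. Log2 fold changes of the 7 genes ran from -0.44 (CMI206C) to 0.22 (CMI210C), and none was called. A second copy on chromosome 11 (TE_struc_26, 110404 to 121738) covers CMK039C, CMK040C, CMK041C and CMK042C, with 84.5, 34.8, 91.1 and 225 CPM per kb. Another on chromosome 10 (TE_struc_24) covers CMJ276C, CMJ277C and CMJ279C, with 44.9, 94.6 and 94.3 CPM per kb, beside the LINE gene CMJ275C. Genes under 1 annotated copy thus differed in level in each run, and no gene in these 3 Helitron copies was called.

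**Figure D5:**
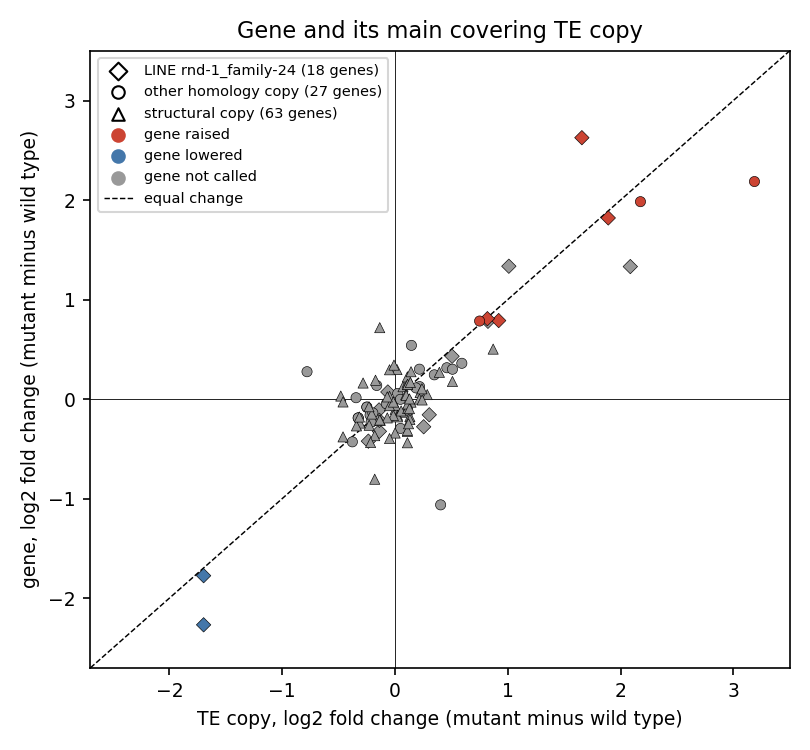
Log2 fold change of each gene against that of the copy that covers most of it, for the 108 genes with both tested; the symbol gives the kind of cover, the colour the call of the gene, and the dashed line an equal change. Most points lie near 0 on both axes, and 6 raised genes and both lowered genes lie beside a copy called in the same direction.

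Over all families, 152 copies overlapped a gene of this set, 105 of them were tested, and 11 rose (10.5%) and 1 fell (0.952%), where 7.1% of all tested TE copies rose and 1.04% fell. Of these, 1 raised copy was structural, among 47 tested, and 10 raised and the 1 lowered were homology copies, among 58 tested. Of the 7 raised genes, 6 lay mainly in a raised copy, CMK071C being the exception. The count of a copy does not always contain the reads of the gene inside it: of the 102 genes that lie wholly within their main copy, 39 had more reads than the copy in every library.

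All genes of this set together took 1.53% ± 0.0651 of a wild-type library and 1.65% ± 0.0241 of a mutant library. The wild-type libraries had 1.51%, 1.60% and 1.48% and the mutant libraries 1.68%, 1.65% and 1.63%, without overlap. Unlike the CPM values, these are shares of unscaled total counts. The scaling factors were 0.953 for wild-type replicate 2 and 1.06 for mutant replicate 3, and over scaled library sizes the groups overlap. Genes under homology copies took 0.433% ± 0.0334 and 0.512% ± 0.0174, and the LINE genes 0.0382% ± 0.00161 and 0.0426% ± 0.00138. The median log2 fold change of the tested genes was -0.028, so the higher share does not mean that most genes rose. Among the families with most reads, the mean summed reads of Helitron (3413 ± 287 and 3858 ± 345 CPM) and TcMar-ISRm11 (1609 ± 390 and 2001 ± 258) were higher in the mutant. Those of DTC (4900 ± 163 and 4659 ± 74.3) and DTM (2689 ± 256 and 2471 ± 53.6) were lower, and none of these sums was called. Most of the Helitron difference came from CMD135C, at 764 ± 380 and 1082 ± 237 CPM. The shares count both gene models of each pair with the same coordinates, whereas the family sums count each locus once. The shares are descriptions with no test.

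For genes of like cover near the chromosome ends, the difference from the interior set was not tested. Within 20000 bp of an end, 23 nuclear genes had at least 50% TE cover; all were tested, 4 rose (17.4%), 9 reached an unadjusted p under 0.05 upward, and their median log2 fold change was 0.24. Interior genes with no TE cover had 34 raised and 81 lowered of 4186 tested, with a median of -0.04. At the cover limit itself, the genes just inside were CMR038C (51.9%), CMJ279C (52.0%) and CMO087C (52.5%), with log2 fold changes of -0.002, -0.06 and 1.98. The genes just outside were CMR077C (48.8%), CMQ074C (48.6%) and CMG131C (45.9%), with 0.20, -0.03 and 0.07.

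The 22 genes not tested had 0 to 51 reads over the 6 libraries together. They comprise 9 TcMar-ISRm11, 6 LINE, 3 Copia, 2 DTM and 2 Harbinger genes. CMD085C alone, a gene of 931 bp, had 0 reads in every library, against a floor of 3 counts per library. None of them was tested for a difference.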

How the data were processed

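Per the labels' protocols, libraries were made by poly(A) enrichment with an unstranded kit. The authors deposited raw whole-number read counts for genes and single TE copies. The submitters' processing notes name Trim Galore and STAR, with no version. Which program counted reads, and how it treated reads with several positions, is not given in the sources used here. Gene coordinates follow build ASM9120v1, per the file headers. TE lines name EDTA as their source, and the structural or homology type was read from the copy names. Both annotations count from 1, and the right end of a chromosome was the last base annotated in either.

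Genes and TE copies were fitted together with edgeR 4.0.16 in R 4.3.3: filterByExpr (minimum count 10, minimum total 15), TMM, glmQLFit and glmQLFTest, with Benjamini-Hochberg adjustment over 7641 rows and calls at adjusted p under 0.05. Standard errors come from the F statistic. DESeq2 1.42.0 and limma 3.58.1 (voom) were alternatives. No library repeated another: within each group the chi-square of any pair over its degrees of freedom was at least 16.2. On simulated counts of 7544 rows for this comparison, the test recovered 92.9% of genes changed 2-fold and 100% of those changed 4-fold, and 6.80% of its calls were false. The changed genes were drawn at random from all tested genes, so these rates do not describe genes of few reads, such as many LINE genes. Intervals and floors cover counting error only.

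Each gene was given to the copy covering most of it. Named were CMQ156C, all called genes with their copies, the 5 most abundant by CPM and by CPM per kb, the lowest-p and most abundant gene of each family of at least 3, the 3 genes on each side of the cover limit, and runs of at least 3 neighbours; LINE copies and untested LINE genes beyond these were chosen after their values were seen. The genes, lists and tests were chosen with earlier results of these data known. Of the gene identifiers 148 matched the RefSeq table of ASM9120v1, whose symbols repeat the locus tags, so planned lists by gene product were not made.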

Additional observations from a re-analysis of the deposited data

How the results depend on the processing

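Across scalings, filters and tests the count of genes that rose (7) was 11 with DESeq2, 12 with gene and copy reads summed, and 4 to 8 with 1 library left out, the lowest without wild-type replicate 1. The count that fell (2) was 6 with DESeq2, 0 at 40000 bp from the ends (where 6 rose), and 2 to 3 with 1 library left out. Over all genes 63 rose and 89 fell in the main fit, 115 and 211 with DESeq2, and 58 and 60 with genes alone. Without wild-type replicate 1 they were 35 and 30. The higher counts with DESeq2 and the fewer raised genes without wild-type replicate 1 were thus not particular to this set. The 4 raised LINE genes became 2 with genes alone in the fit, 2 with the replicate number as a block, and 2 to 4 with 1 library left out. CME173C, CMO087C, CMT010C, CMX009C, CMJ308C and CMJ309C were called under all 15 alternatives to the fit, CMJ290C under 6, CMR431C under 8 and CMK071C under 14. The median log2 fold change, -0.028, was 0.031 with total counts, 0.027 with TMM on genes without TE overlap, -0.012 with no filter, -0.011 with voom, -0.0074 with genes alone, and -0.021 to 0.025 with 1 library left out, so it has no firm sign. Summed by family, 1 family rose, where 3 families held a raised gene. Single values near 0 changed sign. With 1 library left out the log2 fold change ranged from -0.12 to 0.29 for CMG131C (also -0.013), from -0.19 to 0.028 for CMH024C, from -0.13 to 0.18 for CMO183C (also -0.10) and from -0.043 to 0.041 for CMR038C (also 0.0057), and was 0.022 for CMQ074C without wild-type replicate 1. With total counts and with TMM on genes without TE overlap it was 0.027 and 0.024 for CMQ074C and 0.056 and 0.053 for CMR038C, which had 0.019 with genes alone. TE_homo_4583 went to -0.90 with voom. The cause of these changes was not tested.

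Whether replicate numbers pair the samples is not stated. Deviations of same-numbered libraries correlated at 0.022, 0.13 and 0.26, and those of differently numbered ones at -0.26 to 0.14, so pairing was neither shown nor excluded. With the replicate number as a block 5 genes rose and 2 fell (51 and 67 over all genes), CMJ290C and CMR431C losing their calls. Alternatives for the LINE genes, and each identical locus taken once (146 genes, 7 up and 2 down), were chosen after seeing the data. With cover of at least 80%, 129 genes had 6 up and 2 down, and with at least 20%, 196 genes had 7 and 3. Grouping by near-identical sequence was not run. Low counts left 6 LINE, 3 Copia and 9 TcMar-ISRm11 genes untested.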
